A study of Homo sapiens with 3 samples.

Results

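The ATF4, CHOP and unfolded protein response genes are a list of 42 genes, named one by one, that covers the transcription factors of the integrated stress response, their targets in amino acid supply, and the sensors, chaperones and degradation factors of the endoplasmic reticulum. They were read from every probe set that names 1 of these genes and no other, on all 3 arrays. Of the 42 genes, 41 have such a probe set, 69 probe sets in all, and 38 had one bright enough to be measured, out of 6745 genes measured on the arrays. RH30 is an established cell line of human alveolar rhabdomyosarcoma, a tumour of the skeletal muscle lineage. Total RNA came from untreated cells, from cells given 10 µM of a mutated anti-MYCN PNA that the design describes as lacking activity, and from cells given 10 µM of anti-MYCN PNA, each at 12 hours. A PNA carries the bases of DNA on a backbone like that of a peptide, and the anti-MYCN PNA was directed at the MYCN gene. All cells were the same line in the same medium with serum and glutamine, and no sequence of either PNA was used here. There was 1 Affymetrix array per group, so no value has a replicate error and no difference has a test.

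The untreated array carries conflicting labels: its title and treatment text give no treatment, and its source name gives the mutated PNA. It is called untreated below, and any difference between the 2 controls rests on that label.

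Cells that run short of amino acids, or whose endoplasmic reticulum fills with unfolded protein, phosphorylate the translation factor eIF2. Most translation then slows while ATF4 is made, and ATF4 switches on amino acid synthesis and transport, CHOP (the product of DDIT3) and genes that restore translation. Unfolded protein also activates ATF6 and, through IRE1 (the product of ERN1), the factor XBP1, which raise the chaperones of the endoplasmic reticulum. A shortage of amino acids engages the first arm without the second, so the amino acid branch and the chaperone branch are read side by side here.

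Signals are MAS5 values in arbitrary units, and where a gene has several probe sets the brightest stands for it. A gene is called measured when that mean over the 3 arrays reached 117, the median of all gene signals. It is called higher or lower when it lay at least 1.5-fold, 0.58 on the log2 scale, from both controls in the same direction. By that rule 10 of the 38 measured genes (26.3%) were higher in anti-MYCN PNA cells, against 8.27% of all measured genes, and 2 of 38 (5.26%) were lower, against 7.37%. The 10 were ATF4, ATF5, DDIT3, TRIB3, PPP1R15A, ASNS, CBS, SLC7A11, SLC7A5 and ATF6, and the 2 were PSPH and EIF2AK3. CBS and SLC7A11 were measured only through their anti-MYCN PNA signal, with both controls under 117, so the 26.3% includes genes that had to differ to be measured. Taken by any size, 25 of the 38 lay above both controls, against 47.9% of all genes, and 8 below both, against 37.6%. Just inside the rule stood ASNS at 0.61 and EIF2AK3 at −0.60 to the nearer control, and just outside it ATF3 at 0.54 and DNAJB9 at −0.45. At 2-fold from both controls, which 1.16% of all genes reached upward and 1.26% downward, PPP1R15A was the 1 gene higher and none was lower. At 2-fold from mutated PNA alone there were 4 higher and 1 lower (all genes 2.70% and 2.33%), and from untreated alone 1 and 0 (all genes 3.07% and 2.31%). Scaling each array to its median signal, which moved the median of all genes from 0.06 to −0.13, left 5 genes higher, ATF4, ATF5, DDIT3, PPP1R15A and SLC7A11, and 4 lower; over all genes the same scaling gave 254 higher and 941 lower of 6744, in place of 558 and 497 of 6745, and no filter gave 1645 and 760. Subtracting the median difference of each gene's chromosome neighbours left 5 higher and 2 lower, against 5.20% and 6.18% of all genes, and 2 of those 5, PPP1R15A and SLC7A11, were among the 10.

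Against each control taken singly the same genes gave 13 higher and 2 lower than mutated PNA (all genes 13.1% and 10.7%), and 11 higher and 4 lower than untreated (all genes 13.1% and 10.4%). Both comparisons use the same anti-MYCN PNA array. Between the controls, none of the 38 was 1.5-fold apart in either direction. The shares over all genes were small too, 2.40% higher in mutated PNA and 2.27% lower, so none among 38 is no contrast with them. The 4 genes not measured are SESN2, with no probe set of its own, and SLC1A4, ERN1 and DNAJC3, whose probe sets were all dim.

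**Figure D1:**
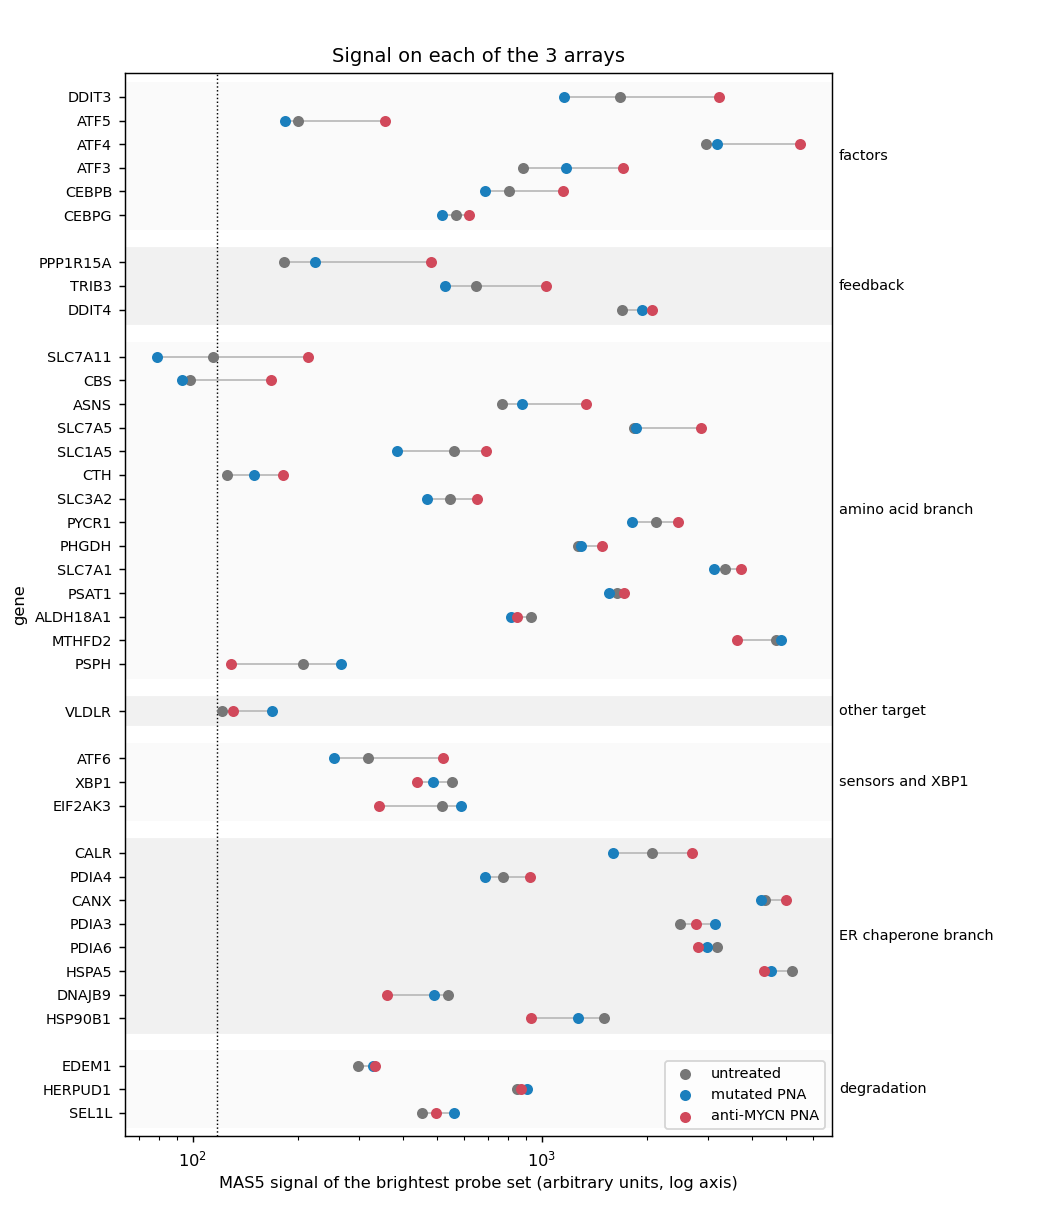
Signal of the brightest probe set of each of the 38 measured genes on the untreated (grey), mutated PNA (blue) and anti-MYCN PNA (red) arrays, on a log axis, grouped by role; the dotted line is the filter of 117. The red points of the factors stand to the right of both control points in all 6 genes, and those of the chaperones fall on either side.

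Array-wide facts bear on all values. For 95% of genes the log2 difference between mutated PNA and untreated cells was 0.57 or less, a range that widens from 0.28 in the brightest of 10 classes of mean signal to 0.94 in the dimmest. All 24 probe sets of the poly-A spikes, control RNAs added before labelling, were below both controls in the anti-MYCN PNA hybridisation, with a median ratio of 0.382 to mutated PNA and 0.410 to untreated, and the part of this in the differences below was not tested. MYCN itself read 3313 untreated, 2803 with mutated PNA and 2202 with anti-MYCN PNA. Muscle markers were present in 6 of 8 cases, MYOD1 and MYOG among them, with a summed signal of 14984 to 18890, while MYF5 and MYF6 stayed below the filter. Both fusion partner genes of this tumour, PAX3 and FOXO1, passed it. Markers of leukocytes, endothelium and fibroblasts passed it in 0 of 4, 0 of 4 and 0 of 5 cases. The brightest single readings in these lists were 55.2 for CD3E (untreated), 75.3 for PECAM1 and 136 for COL1A1 (both with anti-MYCN PNA); the mean of COL1A1 over the arrays was under the filter. Their summed signals over untreated, mutated PNA and anti-MYCN PNA cells were 79.5, 33.2 and 133, then 49.5, 56.3 and 103, then 173, 225 and 397. Of the epithelial markers KRT18 alone passed, and EPCAM read 29.0 to 38.2.

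All 6 transcription factors lay above both controls and 3 were called higher, with a median log2 difference to the mean of the controls of 0.79, against 0.06 for all genes and −0.13 between the controls. ATF4, the factor whose translation rises when eIF2 is phosphorylated, read 2964 untreated, 3187 with mutated PNA and 5491 with anti-MYCN PNA. The controls lay close together and the third array apart from them, with log2 differences of 0.89 to untreated and 0.79 to mutated PNA. For 95% of genes of like brightness the controls were within 0.28. A rise in ATF4 protein by translation alone would not be seen on an array, which reads only the transcript.

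DDIT3 encodes CHOP, a C/EBP-family factor that ATF4 switches on and that promotes cell death in lasting stress. Its signals were 1672 untreated, 1159 with mutated PNA and 3226 with anti-MYCN PNA. The anti-MYCN PNA signal was the highest and the mutated PNA signal the lowest, 2.78-fold and 1.93-fold apart from it in mutated PNA and untreated cells. The 2 controls themselves differed by −0.53, more than the 0.37 that held for 95% of genes of like brightness. The 20 nearest measured neighbours of DDIT3 on its chromosome had a median difference of 0.34 to the mean of the controls. With that subtracted DDIT3 kept 0.87 to the mean of the controls but only 0.54 to the nearer control, so it was no longer called.

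ATF5, a relative of ATF4 that is translated by the same mechanism, read 200 untreated, 184 with mutated PNA and 356 with anti-MYCN PNA. Its other probe sets, both under the filter, were also highest in anti-MYCN PNA cells, at 173 against 61.6 and 92.2 for the brighter of them. ATF3, a stress-induced repressor and ATF4 target, read 883 untreated, 1176 with mutated PNA and 1708 with anti-MYCN PNA. It thus lay 0.95 above untreated and 0.54 above mutated PNA, with the controls 0.41 apart. CEBPB, a C/EBP factor that pairs with ATF4, read 805, 689 and 1152 in the same order. CEBPG, the partner of ATF4 on many amino acid genes, differed little, at 568, 517 and 619. The chromosome neighbours of CEBPG had a median of 0.44, larger than its own difference of 0.19. Those of ATF3 and CEBPB had medians of −0.22 and −0.10.

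Feedback genes act back on the pathway. PPP1R15A encodes GADD34, which brings a phosphatase to eIF2 and lets translation resume, and it was the gene of the 38 furthest from both controls. Its brighter probe set read 182 untreated, 224 with mutated PNA and 481 with anti-MYCN PNA. Its second probe set gave the same order with a smaller step, 150, 175 and 230, a difference of 0.50 to the mean of the controls against 1.25. TRIB3, a pseudokinase that ATF4 and CHOP induce and that dampens ATF4, read 649, 528 and 1031. DDIT4, a stress-induced inhibitor of mTORC1, read 1702, 1938 and 2072, and so stood 0.10 above the nearer control. The chromosome neighbours of ATF5, PPP1R15A, ATF4 and TRIB3 had medians of 0.39, 0.38, 0.28 and 0.24, and of these 4 genes PPP1R15A alone kept its call with those subtracted.

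**Figure D2:**
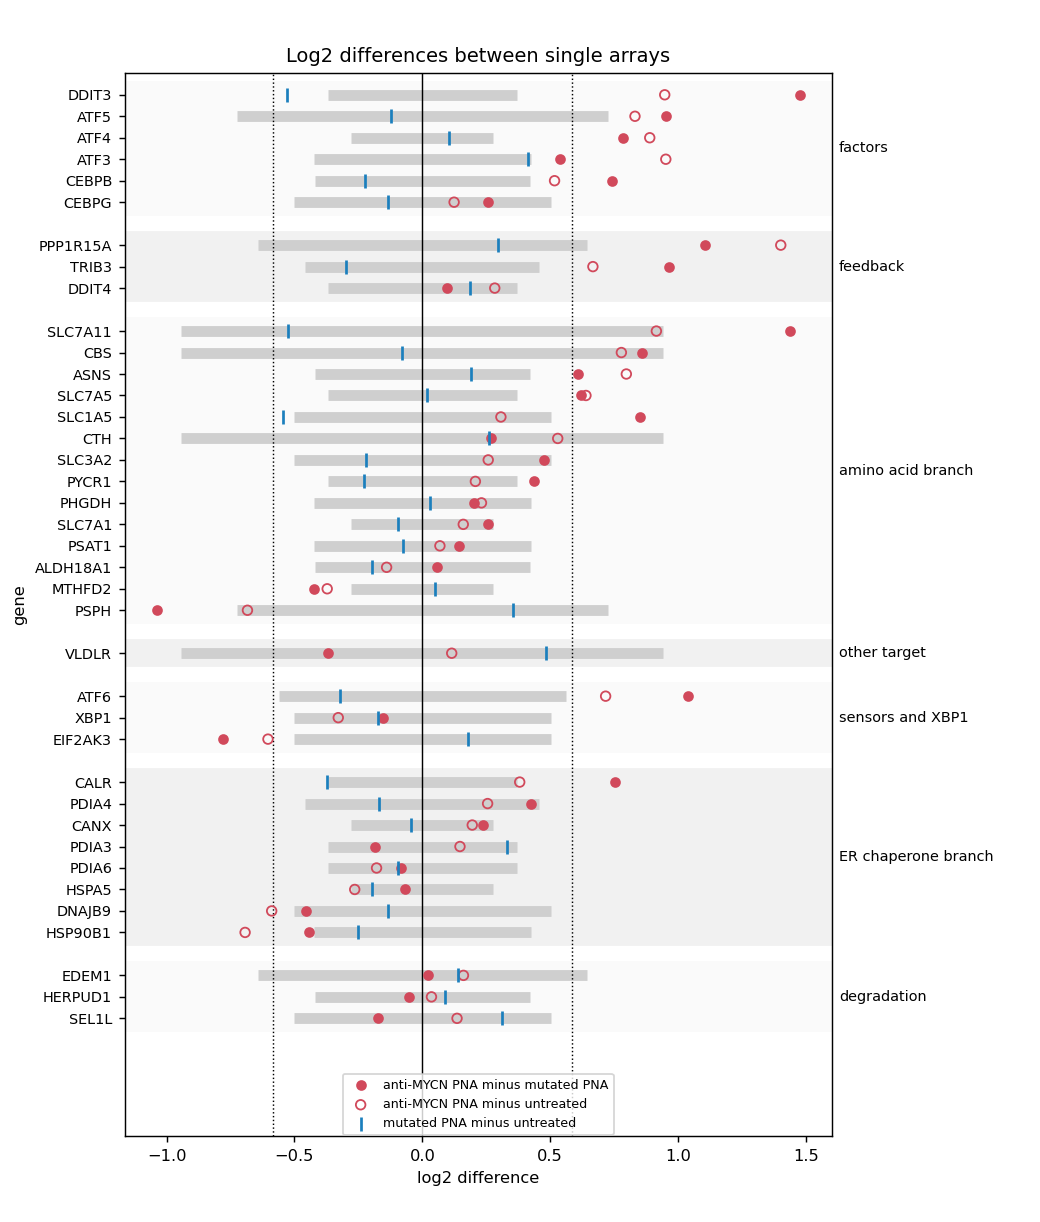
Log2 differences of anti-MYCN PNA minus mutated PNA (filled red), anti-MYCN PNA minus untreated (open red) and mutated PNA minus untreated (blue ticks) for the 38 measured genes; grey bars span the control difference that held for 95% of genes of like brightness, dotted lines mark 1.5-fold. ATF4, DDIT3, TRIB3 and PPP1R15A have both red points beyond the grey bar, while most chaperones have at least 1 inside it.

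The amino acid branch lay mostly above both controls but by less. Of its 15 genes 14 were measured. By any size 11 were above both controls and 2 below (all genes 47.9% and 37.6%). By the 1.5-fold rule 4 were called higher and 1 lower (all genes 8.27% and 7.37%). The branch median was 0.34 above the mean of the controls, against 0.06 for all genes and −0.08 between the controls. SLC7A11 and CBS passed the filter only through their anti-MYCN PNA signal, since both control signals lay under it. The count and median of this branch, and its difference to the chaperone branch, thus include genes that had to differ to be measured.

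Among the enzymes, ASNS, which makes asparagine and is a textbook ATF4 target, read 770 untreated, 879 with mutated PNA and 1338 with anti-MYCN PNA. The difference was 0.80 to untreated and 0.61 to mutated PNA, where 95% of like genes had controls within 0.42. The serine pathway enzymes read differently. PHGDH, its first enzyme, read 1271, 1297 and 1492 in the order untreated, mutated PNA, anti-MYCN PNA. PSAT1, its second, read 1641, 1559 and 1721, a spread of 0.14 or less between any 2 arrays. PSPH, its last enzyme, was lower, at 207 and 265 in the controls and 129 in anti-MYCN PNA cells. The difference to untreated, −0.68, lies inside the 0.72 range of like genes, and that to mutated PNA, −1.04, outside it. A dimmer PSPH probe set, under the filter, went the other way, at 66.2, 55.1 and 94.3, and the near-copy PSPHP1 makes either reading uncertain.

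MTHFD2, the mitochondrial folate enzyme that ATF4 also drives, was below both controls with 3626 against 4692 and 4861. The MTHFD2 differences of −0.37 and −0.42 lay outside the 0.28 range of like genes between the controls, although under 1.5-fold. Its −0.40 to the mean of the controls lay inside the 5th to 95th percentile of all genes. The proline enzymes differed in direction: PYCR1 read 2132, 1819 and 2461, above both controls, and ALDH18A1 read 934, 814 and 848, between them. The neighbours of PYCR1 had a median of 0.53, larger than its own difference of 0.32. CBS, which condenses homocysteine with serine, read 98.1, 92.8 and 168. CTH, which releases cysteine from the product, read 125, 150 and 181, and 61.0, 69.2 and 140 by a dimmer probe set under the filter. CBS, CTH and SLC7A11 belong to the dimmest class of genes, whose own median difference was 0.23 and whose controls lay within 0.94 for 95% of genes. Both CBS differences, 0.78 to untreated and 0.86 to mutated PNA, lie inside that range.

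The transporters were above both controls in all 5 measured cases, and 2 were called (all genes 47.9% and 8.27%). With the median of their chromosome neighbours subtracted, SLC3A2 and SLC1A5 no longer lay above both controls. Their differences to the mean of the controls were then −0.02 and 0.22. SLC7A11, SLC7A5 and SLC7A1 stayed above both. SLC7A11, the cystine importer xCT, read 114 untreated, 78.9 with mutated PNA and 214 with anti-MYCN PNA. It lay 0.92 above untreated, inside the 0.94 range of its class, and 1.44 above mutated PNA, outside it. Its other probe sets, at signals of at most 83.6, did not repeat that order, since each was highest in mutated PNA cells. SLC7A5, the large neutral amino acid transporter LAT1, read 1837, 1860 and 2862, with controls only 0.02 apart and differences of 0.64 to untreated and 0.62 to mutated PNA. SLC3A2, the heavy chain that LAT1 and xCT both need, read 545, 468 and 651, with 0.26 to untreated and 0.48 to mutated PNA.

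SLC1A5, the glutamine transporter ASCT2, read 560, 384 and 693. It differed by 0.85 from mutated PNA and 0.31 from untreated, and mutated PNA lay 0.54 below untreated, beyond the 0.50 range of like genes. SLC7A1, the cationic amino acid transporter CAT1, read 3340, 3125 and 3732 by its brightest probe set, a difference of 0.16 to the nearer control. A second SLC7A1 probe set read 901, 962 and 1481, which is 0.62 from the nearer control, so its call depends on the probe set. SLC1A4, a neutral amino acid transporter under the filter, had a brightest probe set at 53.1, 64.1 and 147, and its other 3 probe sets spanned 27.1 to 70.3. Outside the branch, the ATF4 target VLDLR, a lipoprotein receptor, read 121, 169 and 130, between the controls.

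ATF4 pairs with C/EBP factors on a composite element, here called CARE and searched as TGATGNAA on both strands. The search window ran from 250 bases before to 50 after each RefSeq start site of GRCh38.p14. Of the 42 genes, 38 have a window there; PSPH, SLC7A11, PYCR1 and PDIA3 do not. The letters occur in 3.62% of all 35116 windows, in 4.46% of genes with a window and in 2.65% of measured genes. They occur in 5 of 12 amino acid genes, 2 of 6 factors, HERPUD1 and none of 8 chaperone genes. The matches are shown because they set the branches apart in sequence, with fixed bases in capitals and 6 flanking bases on each side, read in the direction of the element. In SLC3A2 the match lies too near the end of its window to show.

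ASNS: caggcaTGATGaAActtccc

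SLC1A5: agtggcTGATGcAAgctgtc

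SLC1A4: tggagaTGATGcAAacggga

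SLC7A1: cactgcTGATGaAAcctggc

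CEBPG: ggcgtcTGATGcAAcctgcc

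ATF3: tcaggaTGATGgAAggctgt

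HERPUD1: acgggcTGATGcAAcccgcc

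Counted from the start site, the match begins at position −68 in ASNS, −97 in SLC1A5, −7 in SLC1A4, 7 in SLC7A1, −42 in CEBPG, −191 in ATF3 and −176 in HERPUD1. CEBPG, SLC1A5, SLC1A4 and HERPUD1 share the version with c at the free position, which is the consensus of ATF4 and C/EBP. The 250 bases before the ASNS start, at chr7:97872409-97872658 on the minus strand, show its single match amid GC-rich sequence.

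ASNS promoter: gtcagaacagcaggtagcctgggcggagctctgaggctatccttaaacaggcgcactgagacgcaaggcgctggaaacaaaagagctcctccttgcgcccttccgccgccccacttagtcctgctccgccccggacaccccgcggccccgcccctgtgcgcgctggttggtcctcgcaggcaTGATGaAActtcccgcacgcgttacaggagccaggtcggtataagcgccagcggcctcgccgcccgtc

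Of the 7 measured listed genes with the match, 6 lay above both controls and none below, with a median difference of 0.37. The other 144 measured genes with the same letters had a median of 0.02, with 66 above both controls and 61 below. ATF4, DDIT3, TRIB3 and PPP1R15A, among the highest of the list, have no such letters in these windows, which says nothing of other parts of those genes.

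**Figure D3:**
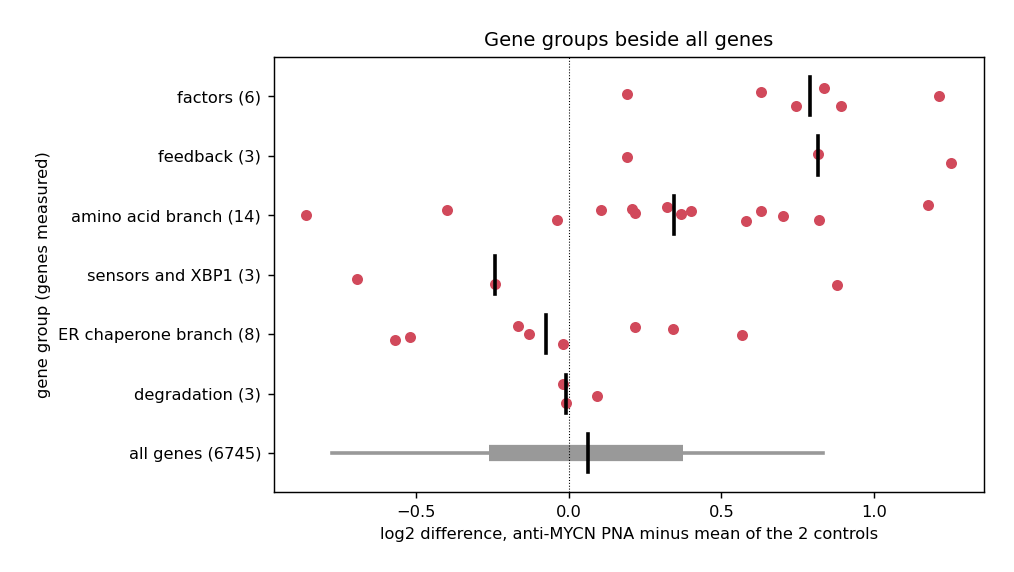
Log2 difference of anti-MYCN PNA minus the mean of the 2 controls for each measured gene (red) by group, with the group median (black line); for all 6745 genes the grey box spans the 25th to 75th percentile (−0.26 to 0.37) and the line the 5th to 95th (−0.78 to 0.83). The medians are 0.79 for factors, 0.82 for feedback genes, 0.34 for the amino acid branch and −0.08 for the chaperone branch.

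The sensors did not share a direction. EIF2AK3 encodes PERK, the kinase of the endoplasmic reticulum that phosphorylates eIF2, and was lower, at 519 untreated, 586 with mutated PNA and 341 with anti-MYCN PNA. Its differences of −0.60 and −0.78 lay beyond the 0.50 range of like genes between the controls, and a pseudocount in place of the floor ended its call. The −0.69 of EIF2AK3 to the mean of the controls lay inside the 5th to 95th percentile of all genes. Inside it too lay ASNS, SLC7A5, TRIB3 and CBS, all called higher, at 0.70, 0.63, 0.82 and 0.82. The other genes called higher lay above the 95th percentile of 0.83, ATF4 the least at 0.84, and PSPH lay below the 5th. ATF6, the membrane-bound factor that is cut free in the Golgi, read 317, 253 and 521 in the same order. Its second probe set, under the filter, gave the opposite order at 73.1, 134 and 36.6. XBP1, whose transcript IRE1 splices, read 552, 489 and 439, below both controls by 0.33 and 0.15. These array values sum spliced and unspliced transcript. ERN1 stayed under the filter, at 59.6, 36.6 and 71.1.

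By its brightest probe set, no gene of the chaperone branch was 1.5-fold from both controls, against 8.27% of all genes higher and 7.37% lower. Of the 9 chaperone genes 8 were measured, 3 above both controls by any size and 4 below (all genes 47.9% and 37.6%). Their median difference was −0.08 to the mean of the controls and −0.15 between them. HSPA5 encodes BiP, the main chaperone of the endoplasmic reticulum and the usual marker of the unfolded protein response, and read 5212 untreated, 4543 with mutated PNA and 4339 with anti-MYCN PNA. The anti-MYCN PNA signal was thus 0.955 of mutated PNA and 0.833 of untreated, inside the range of like genes. HSP90B1, which encodes the chaperone GRP94, read 1508, 1267 and 932. It lay below both controls by 0.69 and 0.44, beyond the 0.42 range of like genes. Its second probe set read 208, 212 and 200, nearly flat. Both are of the _x_at kind, whose probes also match other transcripts, and HSP90B2P is a known near-copy; 2 further probe sets name HSP90B1 together with a microRNA and were left out by the rule.

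CALR and CANX, the lectin chaperones calreticulin and calnexin, lay above both controls. CALR read 2073, 1599 and 2700, and its other 2 probe sets gave the same direction, at 1675, 1861 and 2275 and at 152, 167 and 265. By the dimmest, CALR lay 0.67 above the nearer control, over 1.5-fold, so its call depends on the probe set. By its brightest probe set CALR lay 0.38 above untreated and 0.76 above mutated PNA, beyond the 0.37 range of like genes. CANX, at 4372, 4245 and 5006, was within the 0.28 range of like genes against both controls. The protein disulfide isomerases that fold by making disulfide bonds were spread around 0. PDIA4 read 775, 688 and 925, and its second probe set 502, 603 and 754, both above the controls. PDIA3, at 2492, 3138 and 2759, lay between them. PDIA6 had 4 probe sets on both sides of 0, with the brightest at 3175, 2970 and 2804.

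DNAJB9, a BiP co-chaperone that IRE1 and XBP1 induce, was lower than both controls at 540, 491 and 359, by 0.59 and 0.45. Its chromosome neighbours had a median of −0.60, as large as its own difference of −0.52. DNAJC3, which restrains PERK, was dim, at 27.8 untreated and 64.1 with mutated PNA, and under the floor of 23.4 with anti-MYCN PNA. Among degradation factors HERPUD1, a scaffold of the ubiquitin ligase that ATF4 and ATF6 both induce, read 851, 905 and 873. SEL1L, the partner of that ligase, read 453, 562 and 498, and EDEM1, a lectin that sends misfolded glycoproteins to it, read 298, 329 and 333. None of the 3 was more than 0.02 beyond its nearer control.

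ATF6 and XBP1 bind a different element, the ER stress response element ERSE, in which CCAAT and CCACG are held 9 bases apart. Searched on both strands as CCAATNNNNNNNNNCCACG, it occurs in 0.0769% of all windows, 0.0916% of genes with a window and 0.176% of measured genes. It occurs in 5 of 8 chaperone genes and in XBP1, and in none of 12 amino acid genes, 6 factors or 4 feedback genes. The matches are shown in the direction of the element, with its fixed bases in capitals.

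HSPA5: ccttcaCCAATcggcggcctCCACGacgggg

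HSP90B1, match 1: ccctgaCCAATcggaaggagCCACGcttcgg

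HSP90B1, match 2: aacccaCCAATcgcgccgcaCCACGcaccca

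CALR: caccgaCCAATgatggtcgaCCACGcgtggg

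CANX: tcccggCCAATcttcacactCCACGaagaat

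PDIA6: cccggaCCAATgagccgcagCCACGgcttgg

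XBP1: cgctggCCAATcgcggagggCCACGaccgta

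Besides its CARE, HERPUD1 holds the related ERSE-II, searched as ATTGGNCCACG and present in 0.0541% of windows. It was the one listed gene with matches for both arms in the windows searched, and 4 listed genes had no window. In these windows ALDH18A1 alone of the list holds TGACGTGG, a letter run bound by XBP1, which 0.729% of all windows hold. The 250 bases before the start are given for HSP90B1 (chr12:103930160-103930409, plus strand), one of the chaperones furthest below both controls, for HSPA5 (chr9:125241344-125241593, minus strand) and for HERPUD1 (chr16:56931892-56932141, plus strand), to set chaperone promoters beside one with both elements. Fixed bases of the matches are in capitals. The CARE of HERPUD1 and match 2 of HSP90B1 run on the opposite strand and so read here as their reverse complements.

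HSP90B1 promoter: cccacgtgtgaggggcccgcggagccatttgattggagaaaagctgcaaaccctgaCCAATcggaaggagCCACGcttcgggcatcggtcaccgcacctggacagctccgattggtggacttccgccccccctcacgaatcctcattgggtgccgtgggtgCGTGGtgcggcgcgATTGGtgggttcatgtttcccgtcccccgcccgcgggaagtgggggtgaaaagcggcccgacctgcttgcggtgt

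HSPA5 promoter: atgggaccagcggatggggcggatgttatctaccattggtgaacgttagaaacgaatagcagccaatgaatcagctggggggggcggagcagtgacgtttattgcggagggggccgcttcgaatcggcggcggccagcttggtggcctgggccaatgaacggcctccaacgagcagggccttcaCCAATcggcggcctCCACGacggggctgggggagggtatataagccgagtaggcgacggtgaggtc

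HERPUD1 promoter: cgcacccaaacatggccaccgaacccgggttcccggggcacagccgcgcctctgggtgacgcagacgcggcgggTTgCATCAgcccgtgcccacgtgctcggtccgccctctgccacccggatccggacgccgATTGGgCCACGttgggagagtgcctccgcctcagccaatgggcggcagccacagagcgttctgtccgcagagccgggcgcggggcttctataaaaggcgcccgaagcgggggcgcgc

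Of the 6 measured listed genes with an ERSE, 2 lay above both controls and 4 below, with a median difference of −0.15. The 4 other measured genes with an ERSE had a median of 0.30. A match of letters is a description of the promoter and shows no binding in these cells.

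Set side by side, the amino acid branch had a median 0.42 higher than the chaperone branch against the mean of the controls, 0.43 against mutated PNA and 0.26 against untreated. Between the 2 controls the same subtraction gave 0.08. No test is possible with single arrays, and genes of a branch are not replicates. The difference was above 0 under all 10 alternative settings, from 0.21 with the chromosome neighbourhood subtracted to 0.50 without a filter. Signals as deposited, no floor and median scaling left it at 0.42, since they shift both branches alike or not at all. These settings could therefore not have changed it, and all settings use the same 3 arrays. The spread within each branch was wide: single genes ran from −0.86 for PSPH to 1.18 for SLC7A11, and from −0.57 for HSP90B1 to 0.57 for CALR.

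**Figure D4:**
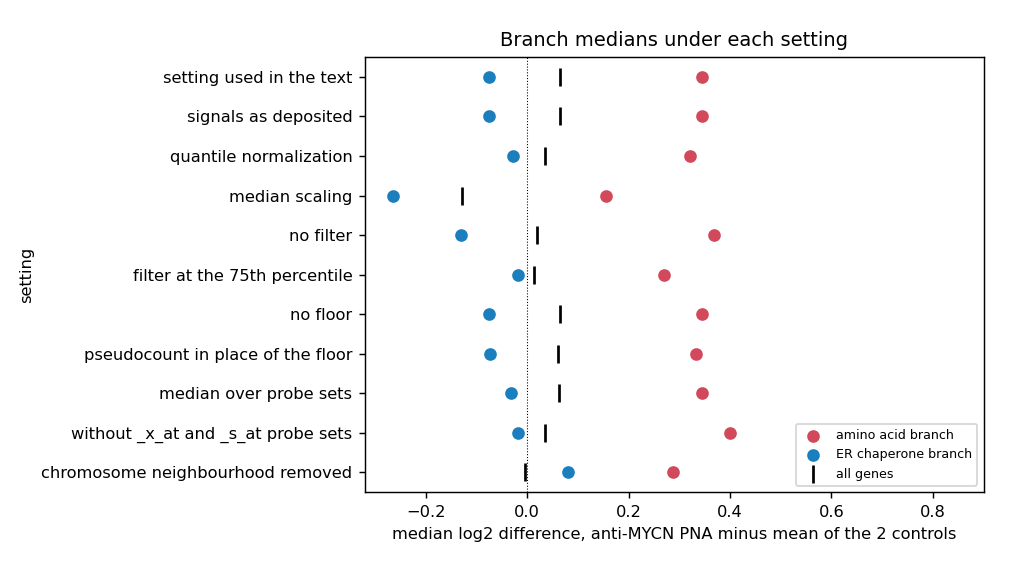
Median log2 difference of anti-MYCN PNA minus the mean of the 2 controls for the amino acid branch (red), the chaperone branch (blue) and all measured genes (black tick) under the setting of the text and 10 alternatives. The red point lies to the right of the blue one in every row, and median scaling shifts all 3 values to the left.

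At the level of probe sets, 16 of the 26 for the amino acid branch passed the filter, of which 12 lay above both controls and 2 below. For the chaperone branch 17 of 19 passed, 9 above and 6 below. No share over all probe sets was computed, and by brightest probe set 47.9% of all genes lay above both controls and 37.6% below. Several probe sets of a gene, as for SLC7A1, PDIA6, CALR and CANX, are not separate genes. The probe sets left out by the filter scattered more widely: in the amino acid branch they ran up to 1.41 for a SLC7A1 probe set of mean signal 65.2, and in the chaperone branch down to −1.25 for one of DNAJB9.

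**Figure D5:**
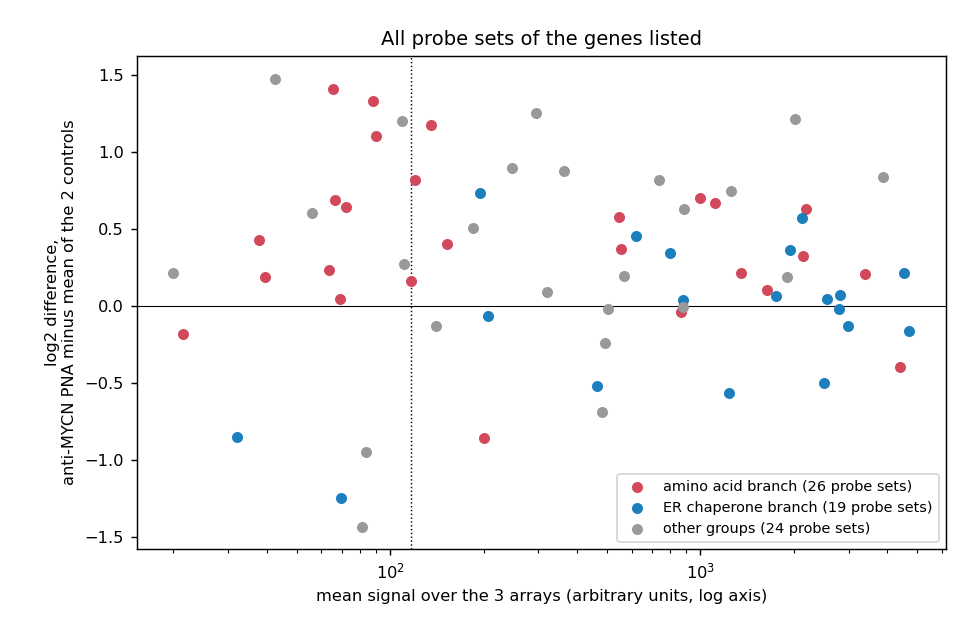
All 69 probe sets of the listed genes, by mean signal on a log axis and log2 difference of anti-MYCN PNA minus the mean of the 2 controls; red for the amino acid branch, blue for the chaperone branch, grey for the other groups, with the filter dotted. Red points lie mostly above 0 on both sides of the filter, and bright blue points lie on both sides of 0.

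A further 86 genes of the same pathways were listed, covering the other eIF2 kinases, further ATF4 and CHOP targets, the proteases of ATF6, and folding, translocation and degradation factors. Of these 60 were measured, and 4 were higher and 5 lower than both controls, which are shares near those of all genes. Their median difference was 0.00. The higher ones were BAK1, a pore-forming death effector, GDF15, a secreted stress cytokine and target of CHOP, SLC43A1, an amino acid transporter, and WFS1, a membrane protein of the endoplasmic reticulum. BAK1 read 205 untreated, 164 with mutated PNA and 416 with anti-MYCN PNA. GDF15 read 395 untreated, 272 with mutated PNA and 638 with anti-MYCN PNA, by an _x_at probe set. SLC43A1 read 148, 217 and 344, and WFS1 read 242, 264 and 407.

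The lower ones were ATF2 and CREB1, factors of the same bZIP class, SSR1, a subunit of the translocon-associated complex, FKBP14, a folding enzyme, and MBTPS2, the protease that makes the second cut in ATF6. SSR1 read 3322, 3460 and 1722, far below both controls for so bright a gene. ATF2 read 303, 266 and 103, and CREB1 451, 423 and 267. MBTPS2, at 225, 167 and 96.0, and FKBP14, at 423, 431 and 270, were lower while ATF6 by its brighter probe set was higher.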

How the data were processed

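The authors deposited 1 linear intensity per probe set and array; the submitters' processing notes name MAS5 and GCOS. It was read from biotin-labelled total RNA. The 2% trimmed mean of the deposited intensities was 500.2 on each array. Of 22277 probe sets, 62 are controls; 19064 name 1 gene in a platform annotation of GEO, 1043 several and 2108 none. Current symbols came from RefSeq (GRCh38.p14) for 19052.

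From the deposited intensities, scaled to one trimmed mean, log2 values were computed with a floor at the 25th percentile over all arrays (23.4). Probe sets whose mean was under the pooled 50th percentile (117) were left out, and the brightest probe set stood for a gene. Differences are compared with the control difference in 10 classes of mean signal. Neighbours are the 10 nearest measured genes on each side. Genes and lists were chosen with earlier results of these data known, and so were the rule for named genes (all 42 genes, and of other pathway genes those 1.5-fold from both controls), the settings and the alternatives. The motifs, and the promoters of HSPA5 and HERPUD1, were chosen after values were seen. The rule was tested on simulated data, with changes larger than any of the 38 genes showed and noise not tied to brightness. That test does not show how well the rule finds 1.5-fold changes. Computation used pandas 2.3.3 and numpy 2.4.6 in Python 3.11.15, and plots matplotlib 3.10.9. The number of arrays limits the precision.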

Additional observations from a re-analysis of the deposited data

How the results depend on the processing

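No paired analysis was possible because each group has 1 array. Signals as deposited and no floor changed no count of listed genes. Of the 10 genes higher than both controls, quantile normalization kept 10 (all genes 7.21% higher and 8.31% lower). Leaving out _x_at and _s_at probe sets kept 6 among 8 called higher of 22 measured (all genes 8.14% higher and 9.07% lower). CALR, a chaperone gene, and SLC7A1 were added. The other 4 of the 10 (ASNS, ATF5, CBS, SLC7A5) have only _s_at probe sets and were no longer measured. Median scaling gave 5 higher and 4 lower, and 1 and 9 of the other pathway genes; the branch medians were then 0.16 and −0.26. The filter at the 75th percentile left 25 listed genes measured, 5 higher and 0 lower (all 3663 genes 4.50% and 6.77%), with 0 and 1 other pathway genes, and a branch difference of 0.29. Subtracting the chromosome neighbourhood gave 5 higher and 2 lower (all genes 5.20% and 6.18%), and 1 and 3 other pathway genes. The chaperone median was then 0.0807 in place of −0.08 and the branch difference 0.21. The cause was not tested. A pseudocount kept the 10 higher genes and left 1 lower gene, PSPH (all genes 7.07% higher and 6.40% lower). At 2-fold there were 1 higher and 0 lower genes (all genes 1.16% and 1.26%), and 1 and 1 other pathway genes. At 3-fold there were 0 in all 4 counts (all genes 0.0445% in each direction). Without a filter, 1 gene was higher (DNAJC3) and 1 lower (ERN1) in mutated PNA than in untreated cells. Dim probe sets limit SLC7A11, CBS and CTH.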
